A study of Homo sapiens with 11 samples.

Results

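EWS-FLI1 was silenced in A673sh Ewing sarcoma cells in which FOXO1 had also been silenced, and the response was measured across all genes. The comparison rests on 4 of the 11 arrays of the series. These are the 2 arrays of sh-FOXO1 cells with doxycycline and the 2 arrays of sh-FOXO1 cells without it, as given by the sample titles. The cells with doxycycline carried the pRS-sh-FOXO1 plasmid, which is directed at endogenous wild-type FOXO1, and received 1 µg/ml doxycycline for 48 h after transfection. The cells without doxycycline carried the same plasmid, received no doxycycline and kept EWS-FLI1, so that FOXO1 silencing was shared by both groups. As a second pair, sh-scrambled cells with doxycycline and sh-scrambled cells without it (2 arrays each) gave the knockdown on a background of intact FOXO1. All groups were A673sh cells, a derivative of the A673 Ewing sarcoma line that expresses an EWS-FLI1 shRNA when doxycycline is added, and all were grown with blasticidin and zeocin and transfected transiently with Lipofectamine Plus. RNA went onto Affymetrix HG-U133 Plus 2 arrays, on which each gene is read by one or more probe sets. Every value below is the deposited value of a probe set, taken as log2.

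The model has limits that apply to all results. It is a derivative of 1 cell line, silencing of FOXO1 was transient, and the shRNA sequence against FOXO1 is not named in the labels. Effects of doxycycline itself and of EWS-FLI1 loss cannot be told apart, because none of these groups gave doxycycline to cells without the inducible shRNA. Nothing states that the replicates came from separate cultures, so the p-values may reflect technical spread between these samples only. Fewer cells expressing a gene and less RNA per cell cannot be told apart either.

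EWS-FLI1 is the fusion of EWSR1 and the ETS factor FLI1 that drives Ewing sarcoma. It activates genes from ETS sites and from repeats of the GGAA core, and it keeps another, mesenchymal set of genes low. FOXO1 is a forkhead transcription factor that restrains growth. It is shut out of the nucleus when AKT phosphorylates it, and CDK2 can phosphorylate it as well.

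Array medians of the 8 shRNA arrays lay between 5.14 and 5.17, and upper quartiles between 6.94 and 7.01. The replicates of sh-FOXO1 cells differed by a median of 0.0891 with doxycycline and 0.0953 without. All 10 Ewing sarcoma markers looked at were measured, and 8 of them fell, so that their mean was 7.65 to 7.76 with doxycycline and 9.32 to 9.40 without. The 2 that were not called were CD99, the surface protein used in diagnosis, at 11.75 and 11.84 with doxycycline, against 12.13 and 12.12 without, and the transcriptional repressor HES6. Of 7 markers each, 3 epithelial, 1 blood cell and 5 endothelial markers passed the filter on dim probe sets. EPCAM and CDH1, PTPRC, and CDH5 and VWF were among those that did not pass. The mean over the measured epithelial markers was 7.60 to 7.67 with doxycycline and 7.42 to 7.48 without, and HBB, the measured blood marker, read 6.53 and 6.46 with doxycycline, against 6.16 and 6.27 without. None of these 4 genes passed the 2-fold limit in limma, by an adjusted or an unadjusted p, though KRT18, an epithelial keratin, was higher by 0.47 (adjusted p = 0.00065) and HBB by 0.28 (adjusted p = 0.0278). The endothelial mean was 7.32 to 7.39 with doxycycline and 6.63 to 6.69 without. It was carried by KDR, a receptor of vascular growth factors (up by 1.86), and the glycoprotein EMCN (up by 1.46), and the part of other cells in any result was not tested.

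FLI1 and FOXO1, the targeted genes, were looked at first. FLI1, which reads the fusion transcript, was at 7.17 and 7.25 with doxycycline, against 8.84 and 8.56 without. The groups did not overlap, and FLI1 fell by 1.49 (2.8-fold, SE 0.10, adjusted p = 6.7e-06, limma). In sh-scrambled cells it was at 6.92 and 6.93 with and 8.84 and 8.71 without doxycycline, and fell by 1.85, and the falls in the 2 backgrounds were not called different (difference 0.37, SE 0.14, adjusted p = 0.174). A second FLI1 probe set fell by 1.19 in sh-FOXO1 cells, and by 1.18 in sh-scrambled cells. EWSR1, the other fusion partner, which is also read from its intact allele, changed by 0.09 (adjusted p = 0.744).

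FOXO1 itself was at 5.76 and 5.75 with and 4.97 and 4.80 without doxycycline in sh-FOXO1 cells. In sh-scrambled cells it was at 7.35 and 7.04 with and 5.86 and 5.81 without doxycycline. FOXO1 was lower in sh-FOXO1 than in sh-scrambled cells both with doxycycline (-1.44, adjusted p = 0.00014) and without it (-0.95, adjusted p = 0.00074). In sh-FOXO1 cells it was 0.86 higher with doxycycline (SE 0.11, adjusted p = 0.00026), short of the 2-fold limit used for calls. A second FOXO1 probe set was at 6.18 and 6.38 with doxycycline, against 4.41 and 4.46 without, and rose by 1.85 in both backgrounds. FOXO1 in sh-FOXO1 cells with doxycycline thus stood close to its level in sh-scrambled cells that had not received doxycycline, which was 5.87 and 6.02 on the second probe set. Low FOXO1 in this comparison means low relative to sh-scrambled cells, not its absence, and no protein was measured in these data.

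**Figure D1:**
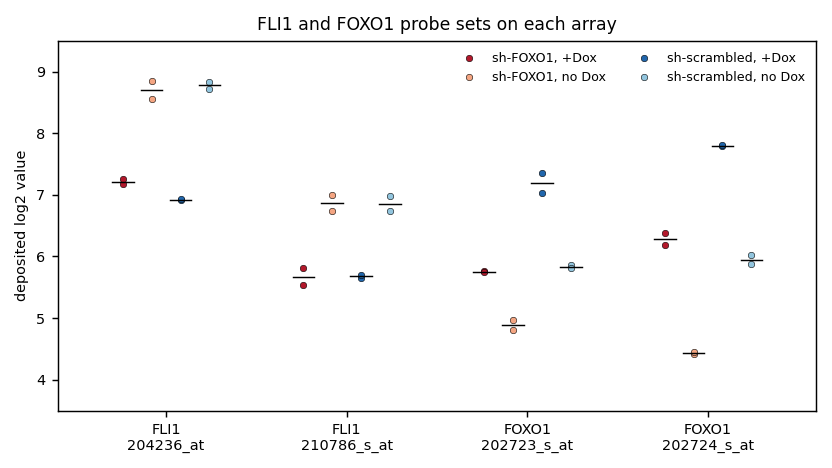
Deposited log2 values of FLI1 (2 probe sets) and FOXO1 (2 probe sets) on each of the 8 shRNA arrays. Points are arrays and bars are means of 2 arrays; FLI1 is lower and FOXO1 higher with doxycycline in both backgrounds, and FOXO1 in sh-FOXO1 cells with doxycycline lies near its level in sh-scrambled cells without it.

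In FOXO1-silenced cells 1682 of 12326 genes differed at least 2-fold between doxycycline and none. Of all genes tested, 896 were higher (7.27%) and 786 lower (6.38%) with doxycycline, at an adjusted p under 0.05 in limma and past 1 on the log2 scale. Each gene was read by its probe set of largest interquartile range on these arrays, which can favour larger changes. On the brightest probe set 755 were higher and 679 lower, and in the mean of all probe sets of a gene 709 and 629. Large changes were more often rises: 279 genes rose and 119 fell past 2, and 105 rose and 13 fell past 3. In 821 of the higher and 667 of the lower genes the arrays of each replicate number differed past the limit. The median over all genes was -0.07. Called genes read by more than 1 probe set past the filter numbered 954, and in 891 of them every probe set moved the same way. For 55 higher genes the level without doxycycline lay below the array's lower quartile, and for 40 lower genes the level with doxycycline did, so that their changes may be understated.

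Secreted matrix proteins and binders of insulin-like growth factors were among the 12 largest rises. IGFBP7, a secreted growth factor binding protein, read 11.23 and 11.35 with doxycycline, against 3.90 and 4.25 without. It rose by 7.21, or 148-fold (SE 0.12, adjusted p = 2e-08). MGP, an inhibitor of calcification in cartilage and vessels, read 11.38 and 11.60 with doxycycline, against 4.46 and 4.59 without, a rise of 6.97. The matrix protein THBS1, which activates latent TGF-beta, read 9.85 and 9.86 with doxycycline, against 3.79 and 3.78 without, and rose by 6.07. These genes stood near the floor of the arrays without doxycycline and high with it.

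The proteoglycan VCAN (up by 5.45), the collagen crosslinking enzyme LOX (5.04), the periostin gene POSTN (4.94), and the collagen genes COL8A1 (4.86) and COL11A1 (4.69) followed. POSTN read 10.12 and 10.24 with doxycycline, against 4.97 and 5.52 without, the widest spread between replicates without doxycycline among the 12. ITGB8, an integrin subunit that binds latent TGF-beta, read 9.35 and 9.50 with doxycycline, against 4.42 and 4.83 without (up by 4.80). IGFBP5 read 12.28 and 12.34 with doxycycline, against 7.58 and 7.50 without (up by 4.77), the heparin-binding growth factor PTN 9.42 and 9.64 with doxycycline, against 4.47 and 4.44 without (up by 5.08), and the little studied secreted protein FIBIN 10.43 and 10.55 with doxycycline, against 4.98 and 5.18 without (up by 5.41). In each of the 12 the arrays with doxycycline lay more than 4 log2 units above those without.

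Membrane proteins, signalling proteins and genes of the nervous system were among the 12 largest falls. APELA, the peptide ligand of the apelin receptor, read 3.68 and 3.73 with doxycycline, against 8.20 and 8.08 without. It fell by 4.44 (21.6-fold, SE 0.07, adjusted p = 2e-08) to the floor of the arrays. SCNN1G, a subunit of the epithelial sodium channel, read 4.15 and 4.33 with doxycycline, against 8.06 and 8.20 without, and the protocadherin PCDH8 read 3.40 and 3.56 with doxycycline, against 7.28 and 7.19 without. The Wnt antagonist DKK2 read 5.98 and 6.25 with doxycycline, against 9.84 and 9.74 without, and fell by 3.68.

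DLG2, a scaffold of synapses, fell by 3.56, the neural cadherin CDH8 by 3.41, and the peptidase TRHDE, which degrades thyrotropin-releasing hormone, by 3.29. The mitotic kinase PBK read 6.52 and 6.64 with doxycycline, against 9.86 and 9.80 without, and fell by 3.25. PRKCB, a protein kinase C isoform and known EWS-FLI1 target, read 6.07 and 6.35 with doxycycline, against 9.43 and 9.33 without, and fell by 3.17. The remaining members were the membrane protein SERTM1 (fell by 3.14), the Wnt regulator AMER2 (fell by 3.03) and the adhesion receptor ADGRG2 (fell by 3.03). With and without doxycycline, none of these 24 genes overlapped between groups, as the choice by size requires.

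Most genes known to be activated by EWS-FLI1 fell. Of 39 measured members of a list of such genes, 27 fell (69.2%), 3 rose (7.69%) and 9 were not called. Over all genes 6.38% fell and 7.27% rose. The list median was -1.61, against -0.07 over all genes. This list, like every gene list below, was drawn up with results of these arrays known. NKX2-2, the homeobox factor needed for transformation by the fusion, read 6.94 and 6.89 with doxycycline, against 9.48 and 9.22 without (fell by 2.43, SE 0.09, adjusted p = 3.1e-07). NPY1R, a receptor of neuropeptide Y, read 8.90 and 9.07 with doxycycline, against 11.75 and 11.74 without (fell by 2.76). XG, a blood group antigen next to CD99, read 5.12 and 5.49 with doxycycline, against 8.18 and 8.26 without (fell by 2.91). FOXM1, the forkhead factor of the G2/M phase, fell by 1.88.

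The 3 members that rose were PHLDA1, a regulator of receptor tyrosine kinase signalling (up by 3.78), the uridine phosphorylase UPP1 (2.12) and the matrix protein TNC (1.86). They also rose in sh-scrambled cells, by 4.91, 2.36 and 4.06. Of 25 genes known to be repressed by EWS-FLI1, 14 rose (56%), 2 fell (8%) and 9 were not called (median 1.43). Over all genes 7.27% rose and 6.38% fell, so that the share that fell is near that of all genes. The list of repressed genes was likewise drawn up with results of these arrays known. SPRY1, a feedback inhibitor of receptor tyrosine kinases, read 9.73 and 9.75 with doxycycline, against 5.77 and 5.70 without (up by 4.01). The 2 that fell were CCND2, a D-type cyclin, at 4.72 and 4.76 with doxycycline, against 7.14 and 6.93 without, and TXNIP, an inhibitor of thioredoxin, at 8.73 and 8.82 with doxycycline, against 10.45 and 10.18 without.

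Genes of cell division fell almost without exception. Of 39 measured genes of mitosis 38 fell (97.4%, beside 6.38% of all genes), with a median of -1.80. INCENP, which anchors the chromosomal passenger complex, missed the limit at -0.79. CCNA2, the cyclin of S and G2 phase, read 6.35 and 6.45 with doxycycline, against 9.00 and 8.90 without, and fell by 2.55 (SE 0.08, adjusted p = 1.2e-07). The mitotic kinase gene AURKB read 6.25 and 6.32 with doxycycline, against 8.69 and 8.62 without, and the proliferation marker MKI67 read 7.67 and 7.70 with doxycycline, against 9.87 and 9.85 without. Doxycycline arrays were lower in both cases by more than 2 log2 units. ASPM, a spindle protein, read 4.12 and 5.71 with doxycycline, against 6.73 and 7.85 without. On this probe set the replicates differed by more than 1 unit in both groups, and replicate 2 was the higher one. In sh-scrambled cells replicate 2 was also higher (5.39 and 6.82 with doxycycline, 7.64 and 9.09 without). The call of ASPM was lost without sh-FOXO1 doxycycline replicate 1 (fell by 1.58) and without sh-FOXO1 no doxycycline replicate 2 (fell by 1.82). In these fits the replicate numbers are not balanced between the groups. The brightest ASPM probe set read 8.43 and 8.61 with doxycycline, against 10.13 and 10.26 without, and fell by 1.67.

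Of 47 genes of the G1/S transition and DNA replication, 35 fell (74.5%), 1 rose (2.13%) and 11 were not called (median -1.36). Over all genes 6.38% fell and 7.27% rose. RRM2, a subunit of the enzyme that makes deoxyribonucleotides, read 8.19 and 8.40 with doxycycline, against 11.06 and 10.86 without (fell by 2.67), and CDC25A, the phosphatase that activates CDK2, read 5.07 and 5.32 with doxycycline, against 7.72 and 7.69 without (fell by 2.51). The origin-firing factor MCM10 fell by 2.31 and the thymidylate synthase gene TYMS by 2.28. CDK2 itself read 5.76 and 5.63 with doxycycline, against 6.77 and 6.54 without. Its change of -0.96 (adjusted p = 0.00067) was short of the limit, and was -1.02 after a second quantile normalization, past it. On the brightest CDK2 probe set the change was -0.72, further short of the limit. The member that rose was CDK6, the kinase partner of D-type cyclins, at 10.53 and 10.43 with doxycycline, against 7.26 and 7.41 without (up by 3.15). No difference between sh-FOXO1 and sh-scrambled cells was called in either list by limma's adjusted p (at an unadjusted p under 0.05, 1 in the G1/S and 0 in the mitosis list), and the list medians in sh-scrambled cells were -1.67 for mitosis and -1.65 for G1/S.

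Matrix and adhesion genes rose, and none of those measured was called lower. Of 22 measured collagen genes 16 rose (72.7%, median 2.03), and of 37 glycoproteins, proteoglycans and crosslinking enzymes 25 (67.6%, median 1.75). Of 23 proteases and their inhibitors 14 rose (60.9%, median 1.25), and of 23 integrin and laminin subunits 13 (56.5%, median 1.35). Over all genes 7.27% rose and 6.38% fell. None of these 4 lists had a member that fell past the 2-fold limit, at an adjusted or an unadjusted p under 0.05 in limma. COL6A3, a chain of collagen VI, read 12.64 and 12.78 with doxycycline, against 8.36 and 8.43 without, and COL12A1, a fibril-associated collagen, 10.64 and 10.72 with doxycycline, against 6.75 and 6.72 without. SPP1, the matrix protein osteopontin, read 7.94 and 8.09 with doxycycline, against 4.19 and 4.31 without, and CCN2, a growth factor induced by TGF-beta, 10.58 and 10.63 with doxycycline, against 7.20 and 7.13 without. Among the proteases, the plasminogen activators PLAT and PLAU rose by 3.72 and 2.93.

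Of the integrins that rose, ITGA1, a collagen receptor subunit, read 6.53 and 6.79 with doxycycline, against 3.18 and 3.27 without (up by 3.44). ITGA4, which pairs with ITGB1 to bind fibronectin, read 7.22 and 7.40 with doxycycline, against 4.16 and 4.09 without (up by 3.19). LAMA4, a laminin chain, rose by 4.45, while its brightest probe set changed by 0.48, under the limit. Of 18 genes in a list of mesenchymal transition factors, cadherins and other mesenchymal genes, 9 rose (50%) and none fell by either p. Their median was 1.15, against 0.72 in sh-scrambled cells. Over all genes 7.27% rose and 6.38% fell. The examples below are surface proteins and a bone factor, with no cadherin among them. CD44, the hyaluronan receptor, read 11.28 and 11.25 with doxycycline, against 7.61 and 7.51 without (up by 3.70). RUNX2, the master factor of bone formation, read 8.23 and 8.41 with doxycycline, against 4.93 and 4.85 without (up by 3.43). NT5E, the mesenchymal stem cell marker CD73, read 11.67 and 11.74 with doxycycline, against 8.34 and 8.48 without (up by 3.30).

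Bone and cartilage genes split. Of 13 measured, 6 rose (46.2%) and 2 fell (15.4%), beside 7.27% higher and 6.38% lower over all genes. The bone morphogenetic protein antagonist GREM1 rose by 3.16, while the homeobox factor DLX5 fell by 1.55 and SOX6, a factor of cartilage formation, by 1.57. In the TGF-beta pathway, 9 of 29 rose (31%) and 1 fell (3.45%, under the share of all genes). INHBA, a subunit of activin, read 8.69 and 8.77 with doxycycline, against 4.25 and 4.48 without (up by 4.36), the ligand TGFB2 7.50 and 7.73 with doxycycline, against 3.42 and 3.46 without (up by 4.17), and the receptor BMPR2 rose by 1.95. Of 24 contractile and YAP or SRF target genes 9 rose (37.5%) and 1 fell (4.17%, also under the share of all genes). The tropomyosin TPM1 (3.29), the actin-binding protein TAGLN (2.70) and the YAP target ANKRD1 (2.89) were on the higher side. The member that fell was CAV2, a caveola protein (by 1.63).

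Chemokines rose in FOXO1-silenced cells, many of them by less than in sh-scrambled cells. Of 16 chemokines and receptors 14 rose (87.5%) and 1 fell (6.25%), beside 7.27% higher and 6.38% lower over all genes. The list median was 1.81, against 4.36 in sh-scrambled cells. CCL7, a monocyte attractant, read 8.84 and 9.07 with doxycycline, against 4.52 and 4.77 without (up by 4.31, SE 0.12, adjusted p = 9.3e-08). CXCL12, the ligand of CXCR4, read 10.22 and 10.33 with doxycycline, against 6.20 and 6.22 without (up by 4.07), whereas CXCR4, its receptor, read 8.55 and 8.71 with doxycycline, against 11.10 and 10.97 without, and fell by 2.40. CCL8, another monocyte attractant, rose by 3.67.

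Of 24 genes of NF-kB and interleukin 1 signalling 14 rose (58.3%, beside 7.27% of all genes) and 10 were not called. The list median was 1.03, against 2.31 in sh-scrambled cells. The TNF family ligand TNFSF15 read 10.91 and 10.96 with doxycycline, against 7.06 and 7.35 without (up by 3.73), the cyclooxygenase gene PTGS2 8.25 and 8.26 with doxycycline, against 4.79 and 4.73 without (up by 3.49), and the interleukin 1 receptor kinase IRAK2 9.05 and 9.27 with doxycycline, against 5.90 and 5.89 without (up by 3.27). Of 17 genes that act through IL6, oncostatin M and STAT3, 9 rose (52.9%) and 2 fell (11.8%, beside 6.38% of all genes). Their median was 1.20, against 1.18 in sh-scrambled cells. The transcription factor CEBPD read 9.42 and 9.52 with doxycycline, against 7.18 and 7.29 without (up by 2.24) and the cytokine LIF 8.39 and 8.23 with doxycycline, against 6.05 and 6.13 without (up by 2.22). CEBPB, a related factor, read 10.41 and 10.43 with doxycycline, against 11.64 and 11.49 without, and fell by 1.15, against a change of -0.33 in sh-scrambled cells (difference -0.81, adjusted p = 0.0068).

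The shares called in the remaining signalling lists are given here beside 7.27% higher and 6.38% lower over all genes. Of 29 interferon response genes 8 rose (27.6%) and none fell by either p, such as the exonuclease ISG20 (2.08) and the antiviral factor SAMD9L (1.62). Of 18 MAPK feedback genes 6 rose (33.3%) and 1 fell (5.56%). Of 18 NR4A and immediate early genes 3 rose (16.7%) and 1 fell (5.56%), the orphan receptor NR4A3 (fell by 1.15), and the share that fell is near that of all genes. Of 30 hypoxia genes 6 rose (20.0%), led by EPAS1, the carbonic anhydrase CA12 (2.23) and the collagen prolyl hydroxylase P4HA2 (2.14). Of 30 genes of IGF, PI3K and AKT signalling 7 rose (23.3%) and 1 fell (3.33%), and 4 of the 7 were the binding proteins IGFBP2 (1.46), IGFBP3 (3.86), IGFBP5 and IGFBP7. IGF1R, the receptor, read 8.43 and 8.48 with doxycycline, against 7.45 and 7.24 without (up by 1.11, and 0.97 on its brightest probe set, under the limit), and AKT1 changed by 0.08 (adjusted p = 0.645). In the Wnt pathway 7 of 23 rose (30.4%) and 2 fell (8.70%): the antagonist DKK1 rose by 3.01 and the factor LEF1 by 2.63, while DKK2 and the membrane inhibitor APCDD1 fell.

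Of 7 metallothioneins, small metal-binding proteins, 6 rose (85.7%, beside 7.27% of all genes), MT1X by 2.12 and MT2A by 1.97. The list median was 1.54, against 2.52 in sh-scrambled cells. Probe sets of this family can read near-identical copies, so that the members are not independent.

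Neural genes moved in both directions. Of 21 measured, 5 rose (23.8%), 4 fell (19%) and 12 were not called, beside 7.27% higher and 6.38% lower over all genes. The list median was 0.03, against -0.13 in sh-scrambled cells. The dendrite protein MAP2 read 7.64 and 7.99 with doxycycline, against 3.92 and 4.07 without (up by 3.82), the growth cone protein GAP43 12.09 and 12.05 with doxycycline, against 8.78 and 8.82 without (up by 3.27) and the neurofilament NEFL 10.74 and 10.66 with doxycycline, against 7.66 and 7.82 without (up by 2.96). Against these, the glial factor receptor GFRA2 fell by 1.87 and SOX2, a factor of neural progenitors, by 1.54. All 13 neuropeptides and receptors measured were called, 10 lower (76.9%) and 3 higher (23.1%). The vasoactive peptide UTS2 read 8.30 and 8.40 with doxycycline, against 10.67 and 10.66 without (fell by 2.31) and the neuropeptide Y receptor NPY5R 5.90 and 5.96 with doxycycline, against 8.38 and 8.47 without (fell by 2.50). Galanin, neurotensin and somatostatin rose: GAL read 8.88 and 8.99 with doxycycline, against 6.71 and 6.70 without, NTS 7.62 and 7.94 with doxycycline, against 5.77 and 5.93 without and SST 5.96 and 6.09 with doxycycline, against 4.68 and 4.81 without. In sh-scrambled cells these 3 changed by 0.88, 0.95 and 0.59, under the limit, and the difference was called for GAL (1.35, adjusted p = 0.0024) and NTS (0.98, adjusted p = 0.0097).

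Biosynthetic genes fell where they moved. Of 17 genes of serine, one-carbon and amino acid synthesis 6 fell (35.3%) and none rose, beside 6.38% lower and 7.27% higher over all genes. The serine synthesis enzymes PSAT1 and PSPH fell by 1.62 and 1.37. On the brightest PSPH probe set the change was -0.93, under the limit. Asparagine synthetase ASNS read 9.52 and 9.42 with doxycycline, against 10.81 and 10.77 without (fell by 1.32). Of 23 genes of cholesterol and fatty acid synthesis 8 fell (34.8%) and none rose (median -0.86). The sterol oxidase MSMO1 read 8.58 and 8.57 with doxycycline, against 10.36 and 10.09 without (fell by 1.65), HMGCS1, which opens the mevalonate pathway, 5.50 and 5.70 with doxycycline, against 7.12 and 7.19 without (fell by 1.56), and the desaturase SCD fell by 1.31. At an unadjusted p in limma the counts of both lists were the same. The 31 genes of mitochondrial translation and respiration lay between -0.74 and 0.10 with a median of -0.39 and no call, by either p. The 16 reference genes lay between -0.88 and 0.36 with a median of -0.13, also with no call.

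Of 19 measured forkhead genes 1 rose (5.26%) and 2 fell (10.5%), beside 7.27% and 6.38% of all genes. FOXC2, a factor of mesenchyme and vessels, rose (7.62 and 7.59 with doxycycline, against 5.39 and 5.13 without, up by 2.34), and FOXM1 and FOXN2 fell, by 1.88 and 1.04. FOXO3, the close relative of FOXO1, read 10.30 and 10.43 with doxycycline, against 9.80 and 9.62 without (a change of 0.65, adjusted p = 0.00036, short of the limit), and changed by 0.74 in sh-scrambled cells. Of 28 targets of FOXO factors 5 rose (17.9%) and 4 fell (14.3%), with medians of 0.13 in sh-FOXO1 and 0.08 in sh-scrambled cells. SELENOP, the plasma carrier of selenium, read 7.03 and 7.39 with doxycycline, against 3.35 and 3.40 without (up by 3.84, SE 0.12, adjusted p = 1.6e-07). SESN3, a stress-induced inhibitor of TORC1 signalling, read 8.01 and 8.20 with doxycycline, against 6.51 and 6.36 without (up by 1.67). DEPP1, induced by FOXO factors and fasting, read 6.69 and 6.66 with doxycycline, against 5.35 and 5.13 without (up by 1.43, and 0.27 on its brightest probe set, under the limit). TXNIP, KLF15, CITED2 and CXCR4 fell, by 1.54, 1.77, 1.88 and 2.40. In sh-scrambled cells SELENOP rose by 3.39 and DEPP1 by 1.76, and neither difference was called, whereas SESN3 changed by 0.62 there, under the limit, and the difference was called ( 1.05, adjusted p = 0.0054).

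The 250 bases before the annotated start of 3 of these targets held the core forkhead motif TGTTTAC on either strand (reverse complement GTAAACA). They are shown because their genes moved in opposite directions although each holds the motif, and they were chosen after their values were seen. Sequences are from RefSeq (GRCh38.p14), run 5′ to 3′ on the gene's strand and end at the base before the start, with the motif in capitals. SELENOP lies at chr5:42811893-42812142, DEPP1 at chr10:44978810-44979059 and TXNIP at chr1:145996580-145996829, all on the minus strand, and the motif begins at -45, -180 and -124 relative to the start.
SELENOP: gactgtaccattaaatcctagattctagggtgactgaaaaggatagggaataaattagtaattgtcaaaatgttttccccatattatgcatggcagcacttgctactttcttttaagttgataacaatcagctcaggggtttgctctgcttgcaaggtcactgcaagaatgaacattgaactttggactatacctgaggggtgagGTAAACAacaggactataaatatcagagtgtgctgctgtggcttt
DEPP1: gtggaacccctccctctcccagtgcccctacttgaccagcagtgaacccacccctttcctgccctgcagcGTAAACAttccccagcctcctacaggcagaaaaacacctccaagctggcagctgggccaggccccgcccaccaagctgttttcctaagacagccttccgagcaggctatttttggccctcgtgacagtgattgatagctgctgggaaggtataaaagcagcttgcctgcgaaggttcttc
TXNIP: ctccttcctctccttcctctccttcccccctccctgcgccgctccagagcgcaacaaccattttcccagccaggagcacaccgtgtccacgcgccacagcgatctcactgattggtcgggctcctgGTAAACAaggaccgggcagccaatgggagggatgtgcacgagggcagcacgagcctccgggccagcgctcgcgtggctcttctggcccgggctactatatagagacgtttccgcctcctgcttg
Counted over windows of 250 bases before to 50 after the start, the motif was in 225 of 9989 measured genes with a RefSeq promoter (2.25%), in 21 of 704 that rose (2.98%) and in 18 of 631 that fell (2.85%). An ETS motif, CCGGAAGT (ACTTCCGG on the other strand), was in 864 of all (8.65%), in 14 that rose (1.99%) and in 33 that fell (5.23%). A pair of GGAA cores, GGAAGGAA (TTCCTTCC), was in 342 (3.42%), 32 (4.55%) and 24 (3.80%). The motifs overlap in the letters GGAA, and a match is a description of the sequence, not of binding.

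EPAS1, MME, OSMR and IGFBP3, which the study takes up by name, rose in FOXO1-silenced cells, by less than in sh-scrambled cells. The study picked EPAS1, MME and OSMR among genes that passed in each of its array comparisons. These included FOXO1 silencing after EWS-FLI1 knockdown in this series. Their lower level in sh-FOXO1 cells with doxycycline thus follows from that choice and is not separate evidence. EPAS1, the hypoxia-inducible factor HIF-2 alpha, read 8.04 and 8.16 with doxycycline, against 5.52 and 5.53 without. It rose by 2.58 (5.97-fold, SE 0.08, adjusted p = 1e-07), against a rise of 4.45 in sh-scrambled cells, and the difference of -1.87 was called (SE 0.11, adjusted p = 0.0001). Without doxycycline sh-FOXO1 cells differed from sh-scrambled cells by 0.11 (adjusted p = 0.307), and with doxycycline by -1.76 (adjusted p = 1.9e-05), so that the gap lay in the cells with doxycycline. MME, a peptidase of the cell surface, read 5.62 and 5.77 with doxycycline, against 4.03 and 4.03 without, near the floor of the arrays. It rose by 1.66, against 2.68 in sh-scrambled cells (difference -1.02, adjusted p = 0.0068). On its brightest probe set the change was 0.47 and the difference -0.66, both under the limits. OSMR, the oncostatin M receptor, read 6.39 and 6.46 with doxycycline, against 5.18 and 5.01 without, and rose by 1.33, against 2.78 in sh-scrambled cells (difference -1.45, adjusted p = 0.00097). The mean of its probe sets changed by 0.79, under the limit. IGFBP3, a known repressed target of the fusion, read 9.36 and 9.32 with doxycycline, against 5.37 and 5.59 without (up by 3.86, against 4.95, difference -1.09, adjusted p = 0.0055).

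The promoters of EPAS1, MME and OSMR, and that of FOXO1, are shown because the study takes these genes up by name. None holds the core forkhead motif or the ETS motif in these windows, and OSMR holds the GGAA pair (capitals, as TTCCTTCC, at -244 from the start). The study reports FOXO1-binding sites from a database for EPAS1 and MME. It also reports EWS-FLI1 binding to FOXO1 promoter fragments that it places further upstream of the start. The ETS motifs it names there differ from the one searched here. Exact matches in these short windows can miss such sites, so their presence was not tested. EPAS1 lies at chr2:46297157-46297406, MME at chr3:155079422-155079671 and OSMR at chr5:38845762-38846011 on the plus strand, and FOXO1 at chr13:40666642-40666891 on the minus strand (GRCh38.p14, RefSeq).
EPAS1: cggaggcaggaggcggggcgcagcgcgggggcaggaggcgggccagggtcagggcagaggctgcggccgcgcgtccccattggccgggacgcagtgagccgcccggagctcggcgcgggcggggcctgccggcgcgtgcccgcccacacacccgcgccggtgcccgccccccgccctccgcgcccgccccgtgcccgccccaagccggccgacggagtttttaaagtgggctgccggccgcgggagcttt
MME: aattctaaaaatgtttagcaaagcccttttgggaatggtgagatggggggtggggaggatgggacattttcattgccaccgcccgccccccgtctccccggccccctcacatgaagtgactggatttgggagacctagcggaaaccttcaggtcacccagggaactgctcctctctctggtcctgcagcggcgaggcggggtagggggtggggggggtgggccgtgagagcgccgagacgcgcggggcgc
OSMR: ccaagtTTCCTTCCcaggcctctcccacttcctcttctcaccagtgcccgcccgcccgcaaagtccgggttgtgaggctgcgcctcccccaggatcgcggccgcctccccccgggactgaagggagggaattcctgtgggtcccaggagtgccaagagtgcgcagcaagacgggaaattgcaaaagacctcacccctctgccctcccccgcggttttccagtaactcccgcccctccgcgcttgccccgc
FOXO1: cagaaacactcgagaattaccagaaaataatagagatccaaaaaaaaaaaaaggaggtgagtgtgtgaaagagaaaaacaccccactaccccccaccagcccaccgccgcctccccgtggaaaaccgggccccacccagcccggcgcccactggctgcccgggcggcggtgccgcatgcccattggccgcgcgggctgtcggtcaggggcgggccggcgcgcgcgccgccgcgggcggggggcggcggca

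The same response was then set beside that of sh-scrambled cells, measured on 4 other arrays. There 998 genes rose (8.10%) and 923 fell (7.49%). Of the genes that rose, 747 rose in both backgrounds, which is 83.4% of the rises in sh-FOXO1 and 74.8% of those in sh-scrambled cells. Of the genes that fell, 658 fell in both, 83.7% and 71.3%. No gene was called in opposite directions, by limma's adjusted or unadjusted p. Across the 12326 genes the 2 effects had a correlation of 0.921 and a slope of 0.833 of sh-FOXO1 on sh-scrambled, as a description, since genes are not independent. The genes called higher in sh-FOXO1 cells had a median of 1.60 there and of 1.70 in sh-scrambled cells, and those called lower -1.40 and -1.46.

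Whether the response differed was tested by the difference between the 2 effects, called at an adjusted p under 0.05 and past 0.7 (1.625-fold). It was higher in sh-FOXO1 cells for 180 genes (1.46%) and lower for 302 (2.45%). In the mean of all probe sets of a gene these counts were 136 and 250. The count of 180 became 225 (with 328 lower) when the replicate number entered as a block, 108 without sh-FOXO1 doxycycline replicate 2, 113 without sh-scrambled doxycycline replicate 1 and 300 without sh-scrambled no doxycycline replicate 1. For 676 of the 896 rises (75.4%) and 737 of the 786 falls (93.8%) no difference was called. Among the rises, 138 were smaller and 82 larger than in sh-scrambled cells, and among the falls, 35 were deeper and 14 shallower. A further 96 genes differed without being called in either background.

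Lower differences, that is, a smaller rise or a deeper fall in sh-FOXO1 cells, took different shares of the lists. The lists were drawn up with earlier results of these data known, so that these shares are a description only. Of the measured members, 10 of 16 chemokines, 16 of 24 NF-kB and interleukin 1 genes, 9 of 17 oncostatin M and IL6 genes, 7 of 18 MAPK feedback genes, 11 of 37 matrix glycoproteins and 6 of 7 metallothioneins had one, beside 2.45% of all genes. None of these 6 lists had a member with a higher difference by limma's adjusted p (at an unadjusted p under 0.05, 1 matrix glycoprotein). Among the EWS-FLI1-repressed genes 11 of 25 and among the matrix proteases 6 of 23 had a lower and none a higher difference by either p, while of 23 integrin and laminin subunits 3 had a higher and 1 a lower one. The levels of the 4 groups, set side by side, differed between the backgrounds with doxycycline, without it, or both. Because the difference and the comparison of the 2 backgrounds share their arrays, the values are given as levels of each group and not as separate evidence.

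In some genes the level with doxycycline was lower in sh-FOXO1 cells, while the levels without it stood nearer to each other. CHI3L1, a secreted glycoprotein of inflammation, read 4.91 and 5.06 with and 3.41 and 3.55 without doxycycline in sh-FOXO1 cells. In sh-scrambled cells it read 8.46 and 8.52 with and 3.46 and 3.37 without doxycycline. The rise was 1.50 against 5.07, with a difference of -3.57 (SE 0.12, adjusted p = 1.3e-05), and on its brightest probe set the change in sh-FOXO1 cells was 0.87, under the limit. IL6, the cytokine, read 6.84 and 6.96 with and 4.94 and 4.94 without doxycycline in sh-FOXO1 cells, and 9.44 and 9.47 with and 4.58 and 4.51 without it in sh-scrambled cells (difference -2.95, adjusted p = 1.3e-05). CXCL6, a neutrophil attractant, read 6.25 and 6.76 with and 3.17 and 3.31 without doxycycline in sh-FOXO1 cells, and 9.13 and 9.23 with and 3.37 and 3.25 without it in sh-scrambled cells (difference -2.60, adjusted p = 0.00053). In these genes the sh-FOXO1 arrays with doxycycline lay more than 2 units under the sh-scrambled ones.

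The orphan receptor NR4A2 read 5.72 and 5.83 with and 4.40 and 4.47 without doxycycline in sh-FOXO1 cells, and 7.80 and 8.06 with and 3.92 and 4.00 without it in sh-scrambled cells. DKK1 read 6.67 and 6.95 with and 3.84 and 3.76 without doxycycline in sh-FOXO1 cells, and 8.62 and 8.83 with and 3.90 and 3.69 without it in sh-scrambled cells. PTGS2 read 8.25 and 8.26 with doxycycline in sh-FOXO1 cells, against 9.86 and 9.89 in sh-scrambled cells. In each of these 3 genes the doxycycline arrays of sh-FOXO1 cells were the lower ones. The neutrophil attractant CXCL2 read 7.28 and 7.40 in sh-FOXO1 cells with doxycycline, against 9.16 and 9.28 in sh-scrambled cells. PTGS2 and CXCL2 were also higher without doxycycline in sh-FOXO1 cells, by 0.98 (adjusted p = 6.7e-05) and 0.99 (adjusted p = 0.00043), so that the backgrounds differed both with and without doxycycline.

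In several genes the level without doxycycline was already raised in sh-FOXO1 cells. CCL2, the main monocyte attractant, read 11.99 and 11.96 with and 8.87 and 9.08 without doxycycline in sh-FOXO1 cells. In sh-scrambled cells it read 12.15 and 12.18 with and 5.92 and 6.03 without doxycycline. Its rise was 3.00 against 6.19 (difference -3.19, SE 0.12, adjusted p = 1.8e-05), yet with doxycycline the backgrounds differed by -0.19 (adjusted p = 0.148) and without it by 3.00 (adjusted p = 2.8e-06). The difference for CCL2 thus lay mostly in its level without doxycycline. MMP10, a matrix protease, read 10.96 and 11.06 with and 7.97 and 8.25 without doxycycline in sh-FOXO1 cells, and 11.15 and 11.06 with and 5.05 and 5.15 without it in sh-scrambled cells, with the same pattern. COL6A3 read 12.64 and 12.78 with and 8.36 and 8.43 without doxycycline in sh-FOXO1 cells, and 11.92 and 11.87 with and 5.60 and 5.88 without it in sh-scrambled cells, and was thus higher in sh-FOXO1 cells with doxycycline (0.81, adjusted p = 0.0011) and without it (2.66).

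CXCL8, the neutrophil attractant interleukin 8, had the lowest difference of all genes, -3.92 (SE 0.29, adjusted p = 0.00035). It read 10.03 and 10.32 with and 8.09 and 8.71 without doxycycline in sh-FOXO1 cells, and 10.79 and 11.10 with and 5.13 and 5.36 without it in sh-scrambled cells, and sh-FOXO1 cells differed from sh-scrambled cells by -0.77 with doxycycline and 3.16 without it. CCL20, an attractant of dendritic cells and lymphocytes, read 9.32 and 9.53 with and 7.36 and 7.79 without doxycycline in sh-FOXO1 cells, and 10.23 and 10.44 with and 4.99 and 4.90 without it in sh-scrambled cells. IL1A, the interleukin 1 alpha gene, read 10.25 and 10.38 with and 9.13 and 9.32 without doxycycline in sh-FOXO1 cells, and 9.87 and 9.94 with and 5.75 and 6.07 without it in sh-scrambled cells. Its rise of 1.09 in sh-FOXO1 cells became 0.99 without sh-FOXO1 no doxycycline replicate 1, just under the limit. With doxycycline CCL20 was also lower in sh-FOXO1 cells (-0.90, adjusted p = 0.0033), beside 2.63 without it (adjusted p = 3.2e-05). In CXCL8, CCL20 and IL1A the levels without doxycycline stood further apart between backgrounds than those with it. TNFSF15 read 10.91 and 10.96 with and 7.06 and 7.35 without doxycycline in sh-FOXO1 cells, and 10.75 and 10.71 with and 5.03 and 4.95 without it in sh-scrambled cells.

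GDF15, a stress-induced cytokine of the TGF-beta family, read 10.22 and 10.32 with and 10.12 and 10.23 without doxycycline in sh-FOXO1 cells. In sh-scrambled cells it read 8.69 and 8.72 with and 6.20 and 6.45 without doxycycline. It was thus high in FOXO1-silenced cells with and without doxycycline, changed by 0.09 (adjusted p = 0.443) with doxycycline there, and had a difference of -2.29 (adjusted p = 0.0001). Over all genes, sh-FOXO1 cells without doxycycline had 425 genes higher (3.45%) and 287 lower (2.33%) than sh-scrambled cells, past 0.7 at an adjusted p under 0.05, and with doxycycline 380 higher (3.08%) and 292 lower (2.37%). Over the 16 chemokines and receptors the median level was 7.67 in sh-FOXO1 cells with doxycycline and 5.21 without, and 8.79 and 4.56 in sh-scrambled cells with and without it. Over the 18 NR4A and immediate early genes it was 7.82 with and 8.08 without doxycycline in sh-FOXO1 cells, and 8.01 and 7.19 in sh-scrambled cells.

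**Figure D2:**
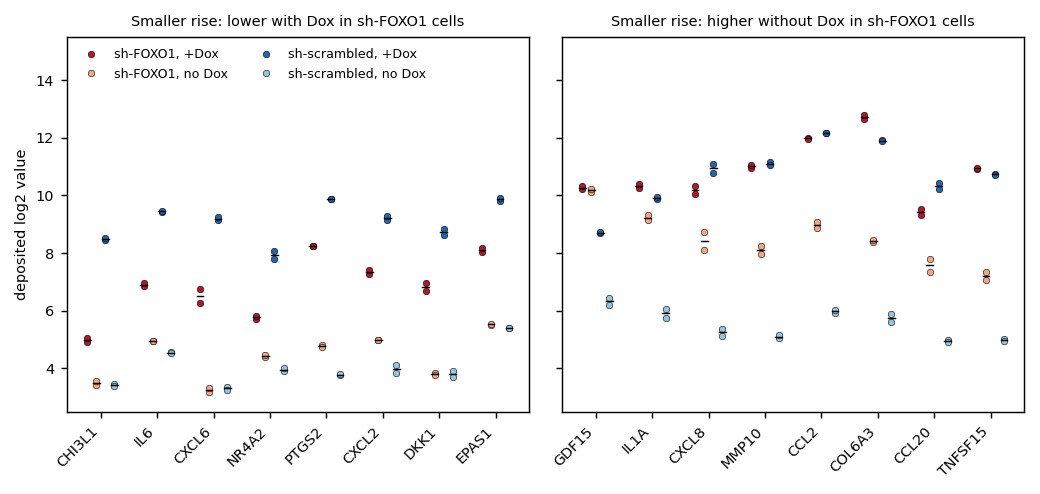
Deposited log2 values on the 8 shRNA arrays of 16 genes with a lower difference, grouped after their values were seen by the larger gap between backgrounds, with doxycycline (left, lower in sh-FOXO1 cells) or without it (right, higher in sh-FOXO1 cells). Points are arrays and bars are means of 2 arrays; CHI3L1 reads 4.91 and 5.06 with doxycycline in sh-FOXO1 cells against 8.46 and 8.52 in sh-scrambled cells, and CCL2 without doxycycline 8.87 and 9.08 against 5.92 and 6.03.

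Other genes rose more in FOXO1-silenced cells. GUCY1A1, a subunit of the nitric oxide receptor guanylate cyclase, read 8.50 and 8.57 with and 4.86 and 4.46 without doxycycline in sh-FOXO1 cells. In sh-scrambled cells it read 6.003 and 5.87 with and 4.63 and 4.35 without doxycycline. The rise was 3.87 against 1.44 (difference 2.43, SE 0.20, adjusted p = 0.00055). The long non-coding RNA LINC00973 read 7.00 and 7.28 with and 3.18 and 3.09 without doxycycline in sh-FOXO1 cells, and 4.68 and 4.63 with and 3.02 and 2.92 without it in sh-scrambled cells (difference 2.31). CD24, a surface glycoprotein of progenitor cells, read 9.77 and 9.80 with and 6.07 and 6.26 without doxycycline in sh-FOXO1 cells, and 8.44 and 8.59 with and 6.82 and 7.16 without it in sh-scrambled cells (difference 2.10). Without doxycycline the backgrounds differed little in GUCY1A1 and LINC00973 (0.17, adjusted p = 0.427, and 0.17, adjusted p = 0.256), whereas CD24 was also lower without doxycycline in sh-FOXO1 cells (-0.83, adjusted p = 0.0019).

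ITGA2, the collagen-binding integrin subunit, read 8.17 and 8.15 with and 5.46 and 5.07 without doxycycline in sh-FOXO1 cells, and 6.54 and 6.35 with and 5.33 and 5.27 without it in sh-scrambled cells. It rose by 2.89 against 1.15 (difference 1.75, adjusted p = 0.0012). LPL, the lipoprotein lipase, rose by 4.48 against 2.77, the kinase scaffold AKAP12 by 2.97 against 1.25, and the Wnt factor LEF1 by 2.63 against 1.28 (difference 1.35, adjusted p = 0.00077). PTN, among the 12 largest rises, read 9.42 and 9.64 in sh-FOXO1 cells with doxycycline, against 8.28 and 8.44 in sh-scrambled cells, and had a difference of 1.02 (adjusted p = 0.0046).

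Some rises passed the limits in sh-FOXO1 cells and not in sh-scrambled cells. They numbered 149, and in 43 of them the difference itself was called. ENDOD1, a membrane nuclease-like protein, read 7.60 and 7.57 with and 5.25 and 5.28 without doxycycline in sh-FOXO1 cells, and 6.003 and 5.78 with and 5.39 and 5.31 without it in sh-scrambled cells (difference 1.78, adjusted p = 0.00026). Its levels parted only with doxycycline. VASH2, a regulator of angiogenesis that detyrosinates tubulin, read 7.30 and 7.46 with and 5.16 and 5.50 without doxycycline in sh-FOXO1 cells, and 6.44 and 6.55 with and 6.01 and 6.35 without it in sh-scrambled cells. ITGB3, the integrin beta 3 subunit, read 6.22 and 6.35 with and 4.23 and 4.29 without doxycycline in sh-FOXO1 cells, and 4.78 and 4.66 with and 4.15 and 4.18 without it in sh-scrambled cells, though on its brightest probe set the change was 0.56 and the difference 0.35, both under the limits. KITLG, the ligand of the receptor KIT, read 8.03 and 8.14 with and 6.78 and 6.94 without doxycycline in sh-FOXO1 cells, and 6.42 and 6.56 with and 6.68 and 6.78 without it in sh-scrambled cells, where it changed by -0.24. GSTA1, a glutathione transferase whose probe sets can read its near-identical relatives, rose by 2.02, against a change of 0.58 in sh-scrambled cells, and PLEKHH2, a protein of the actin cortex, by 1.67, against 0.16.

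Likewise, 128 falls passed the limits in sh-FOXO1 cells and not in sh-scrambled cells, 25 of them with a called difference. SSTR1, a somatostatin receptor, read 3.56 and 3.67 with and 5.97 and 5.59 without doxycycline in sh-FOXO1 cells, and 3.36 and 3.32 with and 3.73 and 3.70 without it in sh-scrambled cells. It fell by 2.16, and without doxycycline it was 2.07 higher in sh-FOXO1 than in sh-scrambled cells (adjusted p = 3.3e-05). ROBO2, an axon guidance receptor, read 5.64 and 5.60 with and 7.01 and 7.12 without doxycycline in sh-FOXO1 cells, and 6.16 and 6.04 with and 6.15 and 6.40 without it in sh-scrambled cells, also higher without doxycycline in sh-FOXO1 cells (0.79, adjusted p = 0.00092). HSD17B2, a steroid dehydrogenase, read 4.46 and 4.63 with and 6.21 and 6.11 without doxycycline in sh-FOXO1 cells, and 5.47 and 5.49 with and 5.70 and 5.61 without it in sh-scrambled cells. TSPAN8, a tetraspanin, read 5.13 and 5.40 with and 7.18 and 7.31 without doxycycline in sh-FOXO1 cells, and 6.33 and 6.45 with and 6.92 and 7.25 without it in sh-scrambled cells (difference -1.29, adjusted p = 0.0058). The sh-FOXO1 cells differed from sh-scrambled cells by -1.13 with doxycycline (adjusted p = 0.00071) and by 0.16 without it (adjusted p = 0.41). KRTAP4-7 and KRTAP4-9, hair keratin-associated proteins of a family of near-identical copies, fell by 2.03 and 2.00, and their identity on the array is uncertain. FAS, the death receptor, fell by 1.73, against a change of -0.85 in sh-scrambled cells, short of the limit (difference -0.89, adjusted p = 0.0034).

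Calls of sh-scrambled cells that were missing in sh-FOXO1 cells comprised 251 rises and 265 falls, of which 84 rises had a lower and 33 falls a higher difference. SERPINB7, a serine protease inhibitor, read 5.49 and 5.67 with and 5.87 and 6.07 without doxycycline in sh-FOXO1 cells, and 6.55 and 6.51 with and 4.64 and 4.61 without it in sh-scrambled cells (difference -2.29, adjusted p = 0.0001). SRGN, a secretory granule proteoglycan, read 4.54 and 4.78 with and 3.80 and 3.98 without doxycycline in sh-FOXO1 cells, and 6.33 and 6.50 with and 3.34 and 3.40 without it in sh-scrambled cells. FOS, the immediate early factor, read 7.41 and 7.05 with and 8.32 and 7.70 without doxycycline in sh-FOXO1 cells, and 7.99 and 7.85 with and 6.89 and 6.54 without it in sh-scrambled cells, a change of -0.78 against 1.20 (difference -1.99, adjusted p = 0.0076). SERPINB7 and FOS stood lower with doxycycline in sh-FOXO1 cells and higher with it in sh-scrambled cells, though neither change in sh-FOXO1 cells was called. FBLN5, an elastic fibre protein, changed by 0.44 against 2.32, and TCIM, a regulator of Wnt signalling, by 0.38 against 2.54. Among the falls, E2F7, a repressor of the E2F family, read 7.28 and 7.44 with and 8.32 and 8.22 without doxycycline in sh-FOXO1 cells, and 6.28 and 6.15 with and 8.61 and 8.75 without it in sh-scrambled cells (difference 1.55, adjusted p = 0.00055). PRKAR2B, a regulatory subunit of protein kinase A, read 6.18 and 6.35 with and 6.38 and 6.19 without doxycycline in sh-FOXO1 cells, and 6.42 and 6.55 with and 7.55 and 7.60 without it in sh-scrambled cells. The sialyltransferase ST8SIA5 changed by 0.00 against -1.11.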

How the data were processed

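RNA of 11 samples of the A673sh line was read on Affymetrix HG-U133 Plus 2 arrays. The authors deposited normalized and summarised log2 values for 54675 probe sets, and the study refers to an earlier description for this step, whose details are not given in the sources used here. The values lay between 2.60 and 14.6 and were taken as log2 from that range. Probe sets with 1 gene symbol (41097) were named through the platform annotation with updated symbols, while 1801 with several and 11777 with none were not named. Kept were probe sets that reached the 60th percentile on at least 1 array, and each gene was read by its probe set of largest interquartile range. The 12326 genes were fitted with limma 3.58.1 in R 4.3.3 in a model of 7 groups over all 11 arrays, without a block (4 residual degrees of freedom), and p-values were adjusted after Benjamini-Hochberg over all genes. Calls required an adjusted p under 0.05 and a log2 change past 1, or past 0.7 for the difference between backgrounds. The fit of the doxycycline effect in sh-FOXO1 cells was tested on simulated data with known changes and a spread independent between arrays. The other steps were not tested in this way. Members, gene lists and the named genes were chosen with earlier results of these data known. Named were genes the study takes up, the 12 largest rises and falls passing the limit in both replicate numbers, the 8 largest differences each way with up to 6 each way called in 1 background, and up to 4 called members of each list with exceptions. Others were picked after their values were seen. Alternatives were a replicate block, the 4 arrays alone, other filters, probe set rules, normalization and prior variance, and each array left out. The 3 arrays of FOXO1 mutants and empty vector enter the fit only. Deviations from the group means of arrays with the same replicate number correlated at 0.440 to 0.621 in all 6 pairs of the 4 shRNA groups, the labels do not say what the number marks, and the fit with the block stands beside the results it changes. Promoter sequences came from a RefSeq table (GRCh38.p14), and the number of arrays limits the precision.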

Additional observations from a re-analysis of the deposited data

Results flagged for a closer look

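The knockdown effect differed between sh-FOXO1 and sh-scrambled cells for 180 genes with a higher and 302 genes with a lower effect in sh-FOXO1 cells, each by limma's test of the difference itself, and the named genes among them are given here with that difference on the log2 scale. The 8 lowest differences were those of CXCL8 (-3.92), CHI3L1 (-3.57), CCL20 (-3.53), CCL2 (-3.19), MMP10 (-3.10), IL6 (-2.95), IL1A (-2.91) and CXCL2 (-2.87). Rises called in sh-scrambled cells alone had a lower effect in sh-FOXO1 cells in SERPINB7 (-2.29), GDF15 (-2.29), SRGN (-2.28), TCIM (-2.16), FOS (-1.99) and FBLN5 (-1.88). Falls called in sh-FOXO1 cells alone differed in KRTAP4-7 (-1.82), SSTR1 (-1.79), HSD17B2 (-1.45), TSPAN8 (-1.29), KRTAP4-9 (-1.28) and ROBO2 (-1.28).

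The effect was higher in sh-FOXO1 cells for GUCY1A1 (2.43), LINC00973 (2.31), CD24 (2.10), ENDOD1 (1.78), ITGA2 (1.75), VASH2 (1.74), AKAP12 (1.71) and LPL (1.71). Rises called in sh-FOXO1 cells alone had a higher effect there also in PLEKHH2 (1.51), ITGB3 (1.48), KITLG (1.46) and GSTA1 (1.44). Falls called in sh-scrambled cells alone differed in E2F7 (1.55), HMGN5 (1.24), CCDC15 (1.18), ST8SIA5 (1.11), MLF1 (1.08) and PRKAR2B (1.07). The differences of ITGB3 and MLF1 were 0.35 and 0.25 on their brightest probe sets, under the limit.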

How the results depend on the processing

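With each of the 4 sh-FOXO1 arrays left out in turn, the genes higher in sh-FOXO1 cells numbered 864 to 951 and the genes lower 718 to 865, against 896 and 786, and under the other alternatives 709 to 954 and 629 to 804. With each of the 8 shRNA arrays left out, the count of higher differences ranged between 108 and 300, against 180, with 108 without sh-FOXO1 doxycycline replicate 2, 113 without sh-scrambled doxycycline replicate 1 and 300 without sh-scrambled no doxycycline replicate 1. With a replicate block, 896 genes were higher and 791 lower in sh-FOXO1 cells, 998 and 927 in sh-scrambled cells, the differences numbered 225 higher and 328 lower, and 1410 genes were called in both backgrounds, against 1405 without it. Of the named genes, DKK3 (-0.70) and JAK1 (-0.73) gained a called difference with the block, and it changed no other named call.

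Single named results turned. The interferon-induced IFI44, up by 1.24, was at -0.0819 under the 75th percentile filter (adjusted p = 0.414) and on its brightest probe set (adjusted p = 0.435). The difference for LOX, -0.74, was 0.0173 on its brightest probe set, and that for IGFBP5, -1.12, was 0.419 in the mean of its probe sets. Of the named calls in sh-FOXO1 cells, 23 genes lost the call under some alternative, mostly with another probe set rule, and 2 gained one. Of the named differences, 18 lost and 15 gained the call under some alternative. The cause was not tested. With 2 arrays per group the spread rests on few degrees of freedom, and genes near the floor of the arrays give changes that may be understated.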

Other observations

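Genes of the p53 response and of protein stress, which the report does not describe, had medians near 0 with doxycycline in FOXO1-silenced cells. Of 23 measured p53 target genes 4 rose (17.4%), 2 fell (8.70%) and 17 were not called, with a median of 0.05, beside 7.27% higher and 6.38% lower over all genes. PLK2, a stress-induced kinase, rose by 3.59, TP53INP1, a p53-induced nuclear protein, by 1.75 and the oxidoreductase gene TP53I3 by 1.50, whereas FAS fell by 1.73 and DDB2, a DNA damage sensor, by 1.13. Of 25 genes of the unfolded protein response and ATF4 stress 1 rose (4%) and 2 fell (8%), beside 7.27% and 6.38% of all genes. The list median was 0.11. NUPR1, a stress-induced chromatin protein, rose by 1.60, and TRIB3, a pseudokinase that binds AKT, fell by 1.10.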
